A study of Mus musculus with 2 samples.

Results

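The genes described here are Olig1 and Olig2 with 7 further genes of the neural lineage, namely Neurod1, Gbx2, Nes, Tubb3, Sox1, Pax6 and Sox3. They were picked by name from the RNA-seq of WT and H3.3 G34R mouse embryonic stem (ES) cells. Olig1 and Olig2 were chosen for having ratios between the cell lines that are among the largest, and the others to see whether neural genes went with them. Of these 9 genes, 8 had a row among the 26127 probes in each file. Sox1 had none and was not analysed here.

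Olig1 and Olig2 are basic helix-loop-helix (bHLH) transcription factors of the spinal cord and brain. They specify motor neuron and oligodendrocyte precursors, and Sonic hedgehog signalling is a known inducer of Olig2 in the ventral neural tube. Neural progenitors are recognised by the SoxB1 factors (Sox1, Sox2 and Sox3), Pax6 and the intermediate filament nestin (Nes), and young neurons by proneural bHLH factors and by neuronal β-tubulin (Tubb3). Several of these genes are not restricted to neural cells, since Sox2 and Gbx2 are also part of the ES cell network.

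The WT cells were unmodified ES cells of strain 129S1/SvImJ, with both H3f3a and both H3f3b alleles intact. The G34R cells were ES cells of the same strain, in which exon 2 of 1 H3f3a allele had been replaced and Cre recombinase had then brought a G34R minigene under the endogenous H3f3a promoter, leaving the other H3f3a allele and both H3f3b alleles WT. Mutant clones had been selected for loss of neo, and the labels do not say how many clones the RNA came from. Both lines were below passage 20 and were grown in 15% foetal calf serum with leukaemia inhibitory factor. A single library of total RNA was made from each line. No value therefore has a replicate, no test was made, and genotype cannot be told apart from clone or culture.

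Levels are RPKM, which is the reads of a gene scaled to the length of its merged transcript and to the library total, as deposited to 2 decimals. The depth read from the RPKM steps of short genes was about 87.9 M reads for WT and 72.2 M for G34R cells. Both libraries carried the ES cell markers, with Pou5f1 at 194.34 RPKM in WT and 189.46 RPKM in G34R cells and none of the 10 listed markers at 0. The highest of them, Dppa5a, was at 707.95 and 647.81 RPKM. In G34R cells 2 of these 10 were lower by more than 2-fold, namely Zfp42 (180.3 to 16.4 RPKM) and Nanog (127.07 to 52.24 RPKM). That is 20%, beside 9.64% of all probes with at least 0.25 RPKM in 1 library. H3f3a had 8.17 RPKM in WT and 4.89 RPKM in G34R cells, a value that does not separate its alleles. Differences are given as log2 (G34R/WT RPKM), with RPKM below 0.01 set to 0.01. A gene was counted as higher or lower when it differed by more than 2-fold and had at least 0.25 RPKM in 1 library. In bulk RNA, fewer cells with a transcript and less transcript per cell cannot be told apart.

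Of the 8 genes, 7 had at least 0.25 RPKM in 1 library. Olig2, Olig1 and Gbx2 were higher in G34R cells by more than 2-fold, and among all 13366 probes with this level 5.79% were higher. Tubb3 was lower by more than 2-fold, against 9.64% of all probes. Neurod1, Nes and Sox3 stayed within 2-fold, and Pax6 was under 0.25 RPKM in both libraries. Olig1 and Olig2 met the level only through the G34R library, so they could not have met it without a difference, and as the genes were chosen with these ratios known the counts are a description. The median log2 ratio over the 8 genes, Pax6 included, was 0.58, beside 0 over all 26127 probes, of which 7365 were at 0 in both libraries. Over the 7 genes with at least 0.25 RPKM it was 0.96, beside -0.07 over the 13366 probes. The choice of Olig1 and Olig2 for their ratios enters both medians of these genes. Nearest to the limit, Neurod1 lay just inside 2-fold with a log2 ratio of 0.96. The next genes beyond the limit among the neural lists described further on were Ncam1 (-1.09), Stmn2 (-1.10) and Hes6 (1.12).

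**Figure D1:**
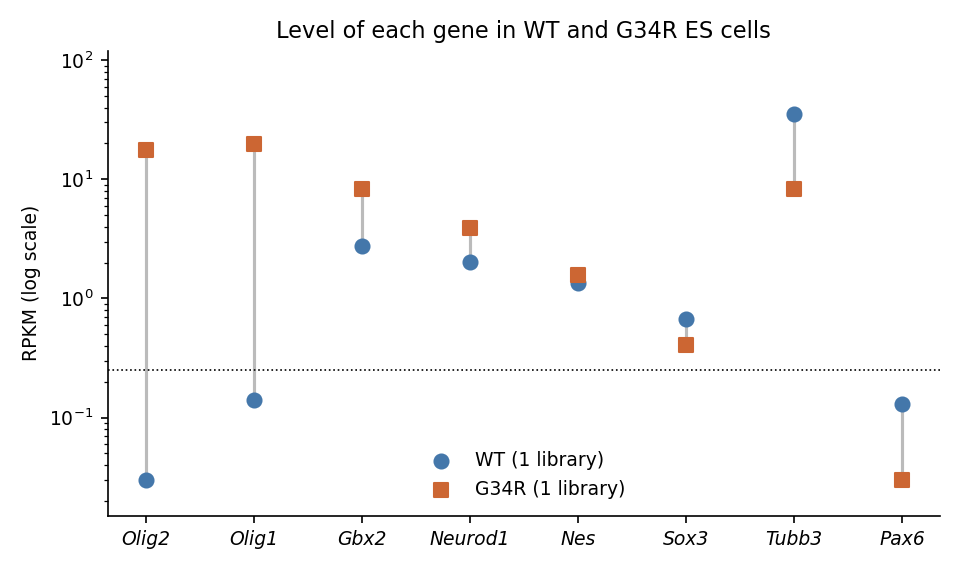
RPKM of each of the 8 genes (log axis) in the WT library (circles) and the G34R library (squares), 1 library each and so without error bars, with a dotted line at 0.25 RPKM. Olig2 and Olig1 go from 0.03 and 0.14 RPKM to 17.71 and 19.6 RPKM, Tubb3 goes from 35.58 to 8.36 RPKM, and Pax6 is below the line in both libraries.

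Olig2 (ENSMUSG00000039830) lies on the plus strand of chromosome 16 in mm9, from 91225795 to 91228922, and has 2 exons. It was at 0.03 RPKM in WT cells and at 17.71 RPKM in G34R cells. The G34R level was above that of 93.3% of probes in the same library, while the WT level was above 36.2%. The log2 ratio was 9.21, or about 590-fold, and was the highest of the 10728 probes with at least 1 RPKM in 1 library. The WT value has a single significant digit, and rounding alone allows a ratio between 506-fold and 709-fold. About 6 reads lay behind the WT value and 3116 behind the G34R value. Counting error on these estimated reads gave a 95% exact binomial interval of 8.18 to 10.75 for the log2 ratio, which does not cover variation between cultures or clones.

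Olig1 (ENSMUSG00000046160) lies 41.1 kb downstream on the same strand, from 91270014 to 91272184, and is a gene of a single exon. It was at 0.14 RPKM in WT cells (about 27 reads) and at 19.6 RPKM in G34R cells (about 3072 reads). The level in G34R cells was close to that of Olig2 and above 94.1% of probes. Its log2 ratio was 7.13, or 140-fold, with a counting interval of 6.57 to 7.72, and ranked 3 of 10728. In WT cells Olig1 was thus the higher of the pair, and in G34R cells the levels of the pair differed little. No 50-base stretch of the Olig1 or Olig2 transcript occurred in the annotated coding transcripts of another gene, so a read of this length from one could not be a perfect match to the other. Olig3, the remaining member of the family, was at 0 RPKM in WT and 0.01 RPKM in G34R cells.

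The promoter of Olig2, the gene with the largest ratio, is shown with that of Tubb3, the gene that was lower by more than 2-fold. The bases are RefSeq promoter entries of build GRCm38.p6 and each was found once in the mm9 genome, on the plus strand of chr16:91225545-91225794 for Olig2 and chr8:125935203-125935323 for Tubb3. Each is cut where the first annotated transcript starts, and capitals mark CpG dinucleotides.
Olig2 promoter: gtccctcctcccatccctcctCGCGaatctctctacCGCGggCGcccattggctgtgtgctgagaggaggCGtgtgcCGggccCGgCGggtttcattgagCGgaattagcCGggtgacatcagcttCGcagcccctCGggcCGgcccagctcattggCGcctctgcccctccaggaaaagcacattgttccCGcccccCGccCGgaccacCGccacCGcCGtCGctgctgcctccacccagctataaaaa
Tubb3 promoter: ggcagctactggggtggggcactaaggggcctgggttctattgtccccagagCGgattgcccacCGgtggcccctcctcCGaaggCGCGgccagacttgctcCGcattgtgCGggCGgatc

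RefSeq entries were found for 6 of the 8 genes (7 entries, with 2 for Pax6), and none was found for Olig1 and Sox3. In the 250 bases before the RefSeq start the Olig2 promoter held 22 CpG and the Tubb3 promoter 21. Those of Neurod1, Gbx2, Nes and Pax6 held 22, 18, 15 and 15, where the median of all 32851 promoter entries was 6. A CpG count above that median was thus shared by the windows of these 6 genes, whether the genes were higher, lower or within 2-fold in G34R cells. The letters TATAAA, searched on both strands, occurred only in the Olig2 entry among the 7, at 8 bases before the start, and in 12.4% of all entries. The E-box letters CANNTG, which bHLH factors bind, were in 66.2% of all entries. They occurred 3 times in the Gbx2 window, 1 time in that of Neurod1 and 1 time in 1 of the 2 Pax6 entries. They were absent from the other Pax6 entry and from these windows of Olig2, Tubb3 and Nes. The RefSeq start of Gbx2 lies 2114 bases inside the annotated gene, and that of the Pax6 entry with the E-box 13567 bases inside. These windows of Gbx2 and Pax6 thus lie within the genes, not before their first annotated start.

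The genes around Olig1 and Olig2 did not share the difference. Within 500 kb on either side were 29 other probes, of which 17 had at least 0.25 RPKM, and none of these was past 2-fold in either direction. Among all probes with this level 5.79% were higher and 9.64% lower. The log2 ratios of the 17 lay between -0.52 and 0.58 with a median of 0.12. Ifnar2, a subunit of the type I interferon receptor and the nearest of the 17 downstream, was at 1.19 RPKM in WT and 1.29 RPKM in G34R cells. On the other side, Gcfc1 was at 3.52 RPKM and 5.2 RPKM. Gart, an enzyme of purine synthesis and the highest in the window, was at 86.91 RPKM and 97.15 RPKM. The other 12 probes stayed below 0.25 RPKM in both libraries.

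**Figure D2:**
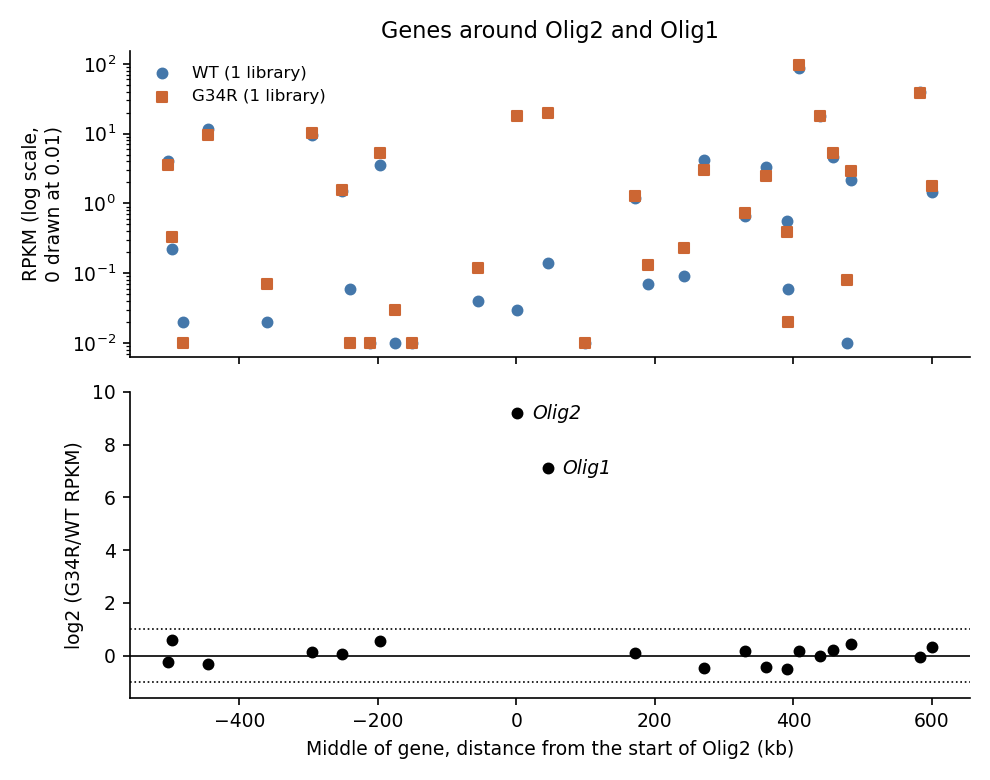
Genes within 500 kb of Olig2 and Olig1, by the distance of the middle of each gene from the start of Olig2 (kb, to the right on the plus strand). The upper panel gives RPKM in each library (log axis, 0 drawn at 0.01) and the lower panel log2 (G34R/WT RPKM) for probes with at least 0.25 RPKM in 1 library, with dotted lines at 2-fold. Olig2 and Olig1 stand at 9.21 and 7.13, and the other 17 lie between -0.52 and 0.58.

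In the order of ratios over the 10728 probes with at least 1 RPKM, the genes next to the pair were Ubd, Apoa2, Gm17561 and Gm17426. Ubd, a ubiquitin-like modifier, went from 0 to 1.93 RPKM and lay between Olig2 and Olig1. Apoa2, an apolipoprotein, went from 0.11 RPKM to 14.7 RPKM, a log2 ratio of 7.06. Gm17561 and Gm17426 were listed at 0 in WT cells and at 1.17 and 1.15 RPKM in G34R cells. For these and for Ubd, the ratio and the place in the order rest on the 0.01 RPKM set in place of 0. The rank of Olig1 behind Ubd rests on it too. The likeness of these genes to the pair is over 2 libraries only. Among these genes Apoa2 alone reached a G34R level comparable to that of Olig1 and Olig2.

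Gbx2 (ENSMUSG00000034486, chromosome 1, minus strand, 91824537 to 91829865) is a homeobox factor of the anterior hindbrain that is also expressed in ES cells. It was at 2.75 RPKM in WT and 8.34 RPKM in G34R cells, with about 1025 and 2553 reads. The log2 ratio of 1.60 (3.03-fold) ranked 167 of 10728. An opposite-strand probe, D130058E05Rik, overlaps 32.4% of its exon bases and was at 1.67 and 2.33 RPKM. The reads were counted by strand. The 4 other probes within 1 Mb of Gbx2 that had at least 1 RPKM in 1 library had log2 ratios from 0.33 to 1.10 (median 0.43).

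Neurod1 (ENSMUSG00000034701, chromosome 2, minus strand, 79292678 to 79296908) is a bHLH factor of neuronal and endocrine differentiation. It was at 2.01 RPKM in WT and 3.91 RPKM in G34R cells, from about 482 and 770 reads. Its log2 ratio of 0.96 had a counting interval of 0.79 to 1.13, which spans the 2-fold limit, and ranked 489 of 10728. With the ratios centred on their own median, or with RPKM scaled to the same sum, it came to 1.01 and passed the limit.

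Tubb3 (ENSMUSG00000062380, chromosome 8, plus strand, 125935324 to 125945915) was the highest of the 8 genes in WT cells. It was at 35.58 RPKM in WT and 8.36 RPKM in G34R cells. The log2 ratio was -2.09, or 4.26-fold lower. About 5842 and 1128 reads lay behind these values. Over the 35 other probes within 1 Mb that had at least 1 RPKM in 1 library, the median log2 ratio was 0.52. These probes ranged from -0.51 to 1.94, with 5 past 2-fold, so Tubb3 stood below every one of them. Gm20388, which overlaps Tubb3 on the same strand but shares none of its annotated exon bases, was at 9.45 RPKM and 18.11 RPKM. No 50-base stretch of the Tubb3 transcript recurred in the coding transcripts of another gene.

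The progenitor genes among the members showed no common direction. Nes (ENSMUSG00000004891, chromosome 3, plus strand, 87775000 to 87784373) was at 1.36 and 1.56 RPKM, with a log2 ratio of 0.20. Sox3 (ENSMUSG00000045179, chromosome X, minus strand, 58144545 to 58146605), a SoxB1 factor, was at 0.67 and 0.41 RPKM, with a log2 ratio of -0.71. About 121 and 61 reads lay behind Sox3, and its counting interval of -1.17 to -0.25 included a 2-fold difference. The 3 other probes within 1 Mb of Sox3 that had at least 1 RPKM in 1 library had log2 ratios from -1.80 to -0.15 (median -1.18). Pax6 (ENSMUSG00000027168, chromosome 2, plus strand, 105509053 to 105543317), a paired-box factor of eye and forebrain, was at 0.13 RPKM and 0.03 RPKM. Pax6 was under the level of 0.25 RPKM in both libraries and so was not counted. Over its 19833 merged exon bases, about 227 and 43 reads lay behind these values. Its log2 ratio of -2.12 had a counting interval of -2.62 to -1.64. The opposite-strand gene Elp4 overlaps 27.9% of the Pax6 exon bases.

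**Figure D3:**
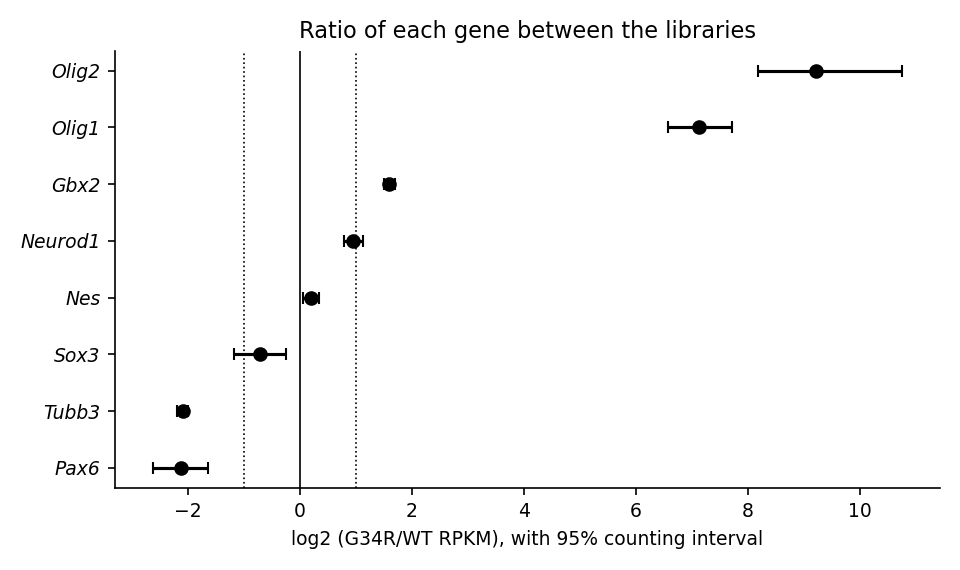
log2 (G34R/WT RPKM) of the 8 genes, with bars for the 95% interval that counting error on the estimated reads gives, dotted lines at 2-fold and 1 library per cell line. Olig2 and Olig1 lie at 9.21 and 7.13, Gbx2 at 1.60, Neurod1, Nes and Sox3 within or across the 2-fold lines, and Tubb3 and Pax6 at -2.09 and -2.12.

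Lists of further neural genes were used to see what else of the lineage was present. Without the 8 members they held 113 genes, all with a row, and 46 of them had at least 0.25 RPKM in 1 library. Of the 46, 8 were higher in G34R cells (17.4%, beside 5.79% of all probes) and 12 were lower (26.1%, beside 9.64%). Among the 8, Zfp521 and Irx3 met the level only through the G34R library. Among the 12, Neurog3, Bcas1 and Nefm met it only through the WT library. These genes could not have met it without a difference. With at least 1 RPKM in 1 library, 6 were higher and 9 lower. The median log2 ratio of the 46 was 0.03, beside -0.07 over the 13366 probes with at least 0.25 RPKM. The remaining 67 of the 113 genes stayed under 0.25 RPKM in both libraries, as did 12761 of all 26127 probes.

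In the oligodendrocyte lineage list of 24 genes, 17 were under 0.25 RPKM in both libraries, with a highest value of 0.21 RPKM. These included Sox10 (0.11 and 0.15 RPKM in WT and G34R cells), the factor that acts beside Olig2 in oligodendrocyte precursors, and Nkx2-2, which was listed at 0 in both. The proteoglycan gene Cspg4, a precursor marker, was at 0.03 and 0.05 RPKM, and the myelin protein genes Mbp and Mog did not exceed 0.21 RPKM. Apart from Olig1 and Olig2, only Nkx6-2 was higher, a homeobox factor of the ventral neural tube, which was at 1.1 RPKM in WT and 4.3 RPKM in G34R cells (log2 ratio 1.97). Bcas1 was lower (0.42 and 0.11 RPKM). Of the 7 listed genes with at least 0.25 RPKM, 3 were thus higher (42.9%, beside 5.79% of all probes) and 1 lower (14.3%, beside 9.64%). The 3 include Olig1 and Olig2, which were chosen for their ratios. Myrf, the regulator of myelin genes, was at 5.28 and 5.4 RPKM, Cnp at 3.28 and 3.45 RPKM, and the growth factor receptor Pdgfra at 0.29 and 0.55 RPKM. Pdgfra also marks primitive endoderm.

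Of 15 proneural and neuronal bHLH genes, 11 were under 0.25 RPKM in both libraries, and 6 of these were listed at 0 in both. Of the other 4, 1 was higher (25%, beside 5.79% of all probes) and 1 lower (25%, beside 9.64%). Hes6 was higher in G34R cells (4.46 and 9.68 RPKM, log2 ratio 1.12). Neurog3 was lower, at 0.66 RPKM in WT and 0.04 RPKM in G34R cells, and Neurog1 was at 0.3 and 0.43 RPKM.

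Among the 23 measured genes of the neural progenitor list, 13 had at least 0.25 RPKM, with a median log2 ratio of 0.20. Of the 13, 2 were higher (15.4%, beside 5.79% of all probes) and 2 were lower (15.4%, beside 9.64%). Sox11, a SoxC factor of immature neurons, was at 1.51 RPKM in WT and 12.11 RPKM in G34R cells, the largest ratio of the list (8.02-fold). The zinc finger gene Zfp521 was at 0.07 and 0.42 RPKM. Zic2 (2.01 and 0.52 RPKM) and vimentin (Vim, 42.5 and 18.5 RPKM) were lower. Sox2, the SoxB1 factor that ES cells and neural progenitors have in common, was at 73.83 and 75.05 RPKM.

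The neuronal structure list, to which Tubb3 belongs, holds cytoskeletal, synaptic and other proteins of neurons. Of its 22 genes 17 had at least 0.25 RPKM, and 8 of these (47.1%, beside 9.64% of all probes) were lower while none was higher (5.79% of all probes), with a median log2 ratio of -0.93. Without Tubb3, 7 of 16 were lower (43.8%) and the median was -0.70. Gap43, a growth cone protein, was at 1.95 RPKM in WT and 0.37 RPKM in G34R cells (log2 ratio -2.40). Crmp1, a cytosolic phosphoprotein of growing axons, was at 13.4 and 3.71 RPKM. The neurofilament gene Nefh was at 14.42 and 4.8 RPKM, and the ubiquitin hydrolase gene Uchl1 at 44.45 and 17.35 RPKM. Stmn2, a microtubule regulator and the highest of the list, was at 63.89 and 29.8 RPKM. The other 9 of the 17 were within 2-fold, among them the neurofilament gene Nefl (6.4 and 4.65 RPKM), the tau gene Mapt (2.41 and 2.13 RPKM) and the synapsin gene Syn1 (1.21 and 0.94 RPKM). The 5 genes under 0.25 RPKM in both libraries were Dcx, listed at 0 in both, Snap25, Rbfox3, Syp and Syt1. The summed RPKM of the list was 202.92 in WT and 85.73 in G34R cells, and 139.03 and 55.93 without Stmn2. Among the 8 lower genes, Nefm (0.39 and 0.13 RPKM) met the level of 0.25 RPKM only through the WT library. The list holds Tubb3, and it was written with earlier results of these data known, the value of Tubb3 among them. Leaving Tubb3 out does not remove this choice.

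**Figure D4:**
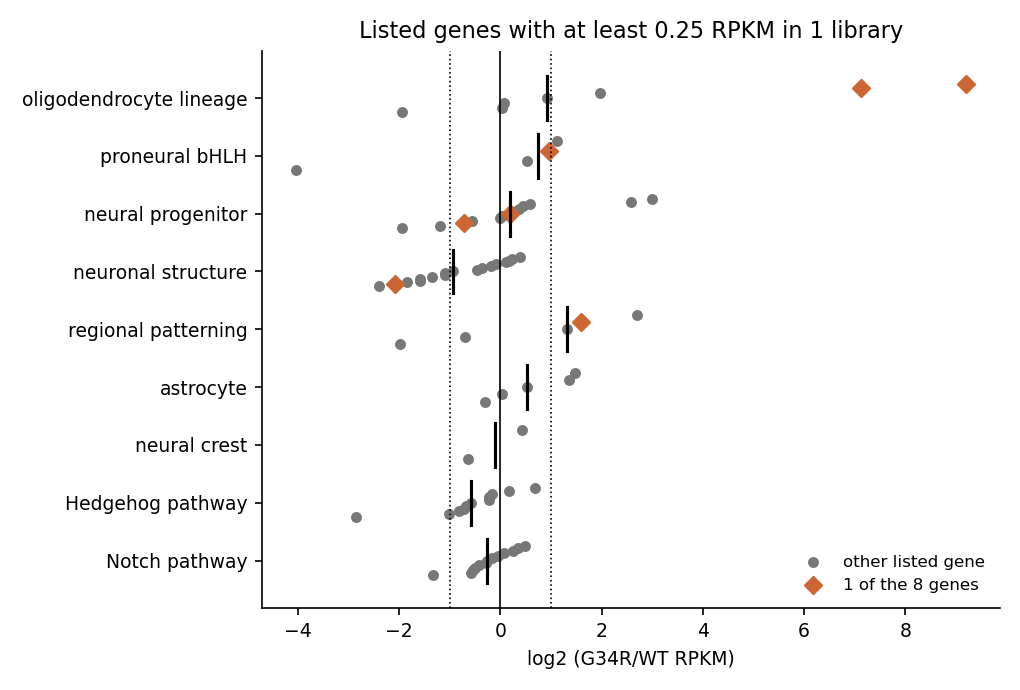
log2 (G34R/WT RPKM) of the listed genes with at least 0.25 RPKM in 1 library, 1 row per list, with diamonds for the 8 genes of the report, circles for other genes, a black bar at the median of each list and dotted lines at 2-fold. The neuronal structure list has 8 genes below the lower line and none above the upper, and Olig2 and Olig1 lie far to the right of every other point.

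The regional patterning list had 15 of 20 genes under 0.25 RPKM. Of the other 5, 3 were higher (60%, beside 5.79% of all probes) and 1 lower (20%, beside 9.64%). The 3 include Gbx2, 1 of the 8 genes. Otx2, the forebrain and midbrain factor that opposes Gbx2 at the midbrain-hindbrain boundary, was at 5.59 RPKM in WT and 1.42 RPKM in G34R cells (log2 ratio -1.98), against the direction of Gbx2. Hesx1 (0.55 and 1.38 RPKM) and Irx3 (0.04 and 0.26 RPKM) were higher. Irx3 met the level of 0.25 RPKM only through the G34R library. En2 was at 0.81 and 0.5 RPKM.

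Of 10 astrocyte genes 5 had at least 0.25 RPKM. Of these 5, 2 were higher (40%, beside 5.79% of all probes) and none was lower (9.64% of all probes). The gap junction gene Gja1 (9.99 and 25.54 RPKM) and the glutamate transporter gene Slc1a3 (0.65 and 1.82 RPKM) were higher in G34R cells. Neither is restricted to astrocytes. Glul, the glutamine synthetase gene and the highest of the list, was at 38.46 and 55.75 RPKM. The filament gene Gfap was at 0.07 and 0.09 RPKM, and Aqp4 and S100b were listed at 0 in both. Of 10 neural crest genes 2 had at least 0.25 RPKM and neither was past 2-fold, with Twist1 at 0.96 and 1.29 RPKM and Msx2 at 0.28 and 0.18 RPKM.

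Components of the Hedgehog pathway were present in both libraries, while its 3 ligands stayed under 0.25 RPKM. Shh was at 0.02 RPKM in WT and 0.01 RPKM in G34R cells, Ihh at 0.02 RPKM in both, and Dhh at 0.13 and 0.23 RPKM. Of 14 genes 11 had at least 0.25 RPKM, with none higher, 2 lower (18.2%, beside 9.64% of all probes) and a median log2 ratio of -0.58. Gli1, a transcription factor and target of the pathway, was at 5.47 and 2.72 RPKM (log2 ratio -1.01), and passed the limit neither with RPKM scaled to the same sum nor with the ratios centred, which left 1 of 11 lower, a share near that of all probes. The receptor gene Ptch1, also a target, was at 10 and 6.26 RPKM, the factor Gli2 at 6.67 and 4.46 RPKM, and the inhibitor Hhip at 0.29 and 0.04 RPKM. Hhip met the level of 0.25 RPKM only through the WT library. In the Notch list 13 of 17 genes had at least 0.25 RPKM and none was higher. Dll1, a ligand, was the 1 gene lower (1.01 and 0.4 RPKM). This share of 7.7% was near the 9.64% of all probes. The effector Hes1 was at 6.39 and 8.92 RPKM and Rbpj, the DNA-binding partner of Notch, at 29.32 and 28.29 RPKM.

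Some markers of other cell types differed as well. The summed RPKM of 10 primitive endoderm genes was 20.9 in WT and 33.41 in G34R cells, and 9.34 and 13.15 without Lama1. Of the 8 with at least 0.25 RPKM, 3 were higher (37.5%, beside 5.79% of all probes) and none was lower. The 3 were Gata6 (0.3 and 1.09 RPKM), Sox17 (0.18 and 0.56 RPKM) and Gata4 (0.5 and 1.18 RPKM). Sox17 met the level of 0.25 RPKM only through the G34R library and could not have met it without a difference. Afp was listed at 0 in both libraries. The basement membrane genes Lama1 and Col4a1 were at 11.56 and 20.26 RPKM and at 7.14 and 8.53 RPKM. The sum of 8 mesoderm genes was 0.96 and 2.8 RPKM, and 0.53 and 0.92 RPKM without Eomes. Only 2 of them had at least 0.25 RPKM, Eomes, which was higher (0.43 and 1.88 RPKM), and Hand1 (0.14 and 0.26 RPKM). Hand1 met this level only through the G34R library. T was at 0.03 and 0.05 RPKM. The sum of 10 fibroblast genes was 7.49 and 3.47 RPKM, and 2.69 and 1.03 RPKM without Fbln1. Of the 4 with at least 0.25 RPKM, Acta2 and Pdgfrb were lower (50%, beside 9.64% of all probes). Both met this level only through the WT library and could not have met it without a difference. With at least 1 RPKM in 1 library none was lower. Dcn, Lum and Postn were listed at 0 in both libraries. Fbln1 was at 4.8 and 2.44 RPKM and Thy1 at 1.18 and 0.71 RPKM. The sum of 8 trophoblast genes was 9.19 and 8.6 RPKM, and 4 and 1.79 RPKM without Tfap2c. Of the 4 with at least 0.25 RPKM, Ascl2 and Plac1 were lower (50%, beside 9.64% of all probes). Plac1 (0.32 and 0.03 RPKM) met this level only through the WT library, and Hand1, also in this list, only through the G34R library. With at least 1 RPKM in 1 library, 1 was lower. Tfap2c was at 5.19 and 6.81 RPKM. The part of these cell types in the levels of Olig1, Olig2 and the other members was not tested.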

How the data were processed

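Total RNA of WT or G34R ES cells (500 ng) was made into stranded libraries with 12 cycles of amplification. Per the submitters' processing notes and the study's methods, the authors aligned the 50 bp single-end reads to mm9 with STAR (2.4.2a), quantitated primary alignments by strand in Seqmonk over merged transcripts, and deposited RPKM per probe. Since each library was scaled to its own total, a difference in overall RNA per cell is not seen in RPKM, and a few very high genes can shift all others.

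The members and the gene lists were chosen with earlier results of these data known. Gene names matched 194 of 195 listed symbols, 5 of them through synonyms. Named in the text are the members, up to 4 genes per list and direction with the largest difference past the limit and the 2 with the highest mean RPKM, examples of the genes around Olig1 and Olig2 (the rule took them all), and the 3 next above and below in the order of ratios. Other listed genes were named for their roles after their values were seen. Exon lengths came from GENCODE M1, which matched 26030 of 26127 probes. Depth was estimated as the total that made the low RPKM of 680 single-exon genes under 800 bp whole numbers of reads (fewer than 6), and reads per gene follow from it. The scripts were tested on simulated data. Intervals cover counting error only. Tables were handled with pandas 2.3.3 and NumPy 2.4.6 under Python 3.11.15, intervals came from SciPy 1.17.1, and plots from matplotlib 3.10.9. Alternatives were other pseudocounts, filters, scalings and thresholds.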

Additional observations from a re-analysis of the deposited data

How the results depend on the processing

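With 1 library per cell line, none of these values measures variation between cultures or clones. No paired analysis was possible because each group has 1 library. No log2 ratio of the 8 genes reversed under another pseudocount or scaling. With pseudocounts of 0.1 and 1 the log2 ratio of Olig2 came to 7.10 and 4.18 and that of Olig1 to 6.36 and 4.18, so their size, but not their direction, depends on how values near 0 are treated. The 3 members higher numbered 3 or 4 under every alternative. The 1 lower became 2 with no filter on low RPKM and with a threshold of 1.5-fold. Of the 46 further neural genes, 8 were higher and 12 lower. These became 3 and 7 with a pseudocount of 1, and 4 and 7 with a threshold of 3-fold. With no filter, which brings in all 113 further genes, they were 15 and 27. Over all probes 774 were higher and 1289 lower. These became 196 and 356 with a pseudocount of 1, 1445 and 2877 with no filter, 439 and 689 with at least 1 RPKM in 1 library, 1780 and 2422 with 1.5-fold, and 331 and 721 with 3-fold. Of 224 counts of single lists 170 stayed within 1.5 times. Depth from single-exon genes under 1500 bp gave 87.9 and 72.4 M reads. The RPKM of genes at the level of Olig2 in WT cells rests on few reads.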
